A study of Mus musculus with 2 samples.

Results

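Nuclei that carried transcripts of Zbtb20, a zinc finger repressor that is needed for the development of the hippocampus, and of Nrp2, a receptor for semaphorins, numbered 417 of the 17198 cortical nuclei with 500 or more genes detected. A nucleus was counted when it had 2 or more unique molecular identifiers (UMIs, each marking 1 captured RNA molecule) of Zbtb20, 1 or more of Nrp2, and 1 or more of Slit3 or Gm32647. It also had to have 0 UMIs of Slc1a3, Gad2, Pdgfra and Trp73, which mark radial glia and astrocytes, GABAergic neurons, oligodendrocyte precursors and Cajal-Retzius cells. The nuclei were chosen by the measured UMIs of these 8 genes, whose levels are therefore no result. The nuclei had been given the working name of hippocampal-like neurons, and the markers of the hippocampal fields were set against that name. In 1 cluster, with 177 of the 417 nuclei, summed levels of Prox1 and several CA3 markers were above those of the cluster next in size. Prox1 was found in only 20 of 104 and 12 of 73 of its gated nuclei in the libraries. The CA3 marker Nectin3 was found in 4 and 0 of those with Prox1. In the cluster next in size no CA3 marker was 1.5-fold higher than in other excitatory nuclei in both libraries. These levels describe the clusters and do not test the name, so the populations are called by cluster number and leading genes below.

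The nuclei came from micro-dissected mouse embryonic neocortex and were sequenced as 10x Genomics 3' version 3 libraries. One library was labelled with the genotype MEN1-NCKO (NCKO) and 1 with MEN1-F/F (F/F). Men1 encodes menin, a scaffold protein of complexes that methylate histone H3. The series title names menin and Epha4, a receptor for ephrins, in late-born neurons, and the comparison asks how the NCKO-labelled library differs from the F/F-labelled one. The sources used here do not give the driver of the deletion, the part of Men1 that was targeted, the embryonic age or the number of embryos in each library. Each label has 1 library, so differences between them have no replicate check and no test, and the intervals cover counting error only.

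The hippocampus arises from the medial edge of the same pallial sheet that forms the neocortex. Its granule neurons, in the dentate gyrus, depend on the transcription factor Prox1, which also marks one class of cortical interneuron. Pyramidal neurons of field CA3 are known for the kainate receptor subunit Grik4 and the adhesion molecule Nectin3, those of field CA1 for Wfs1 and Mpped1. Neocortical projection neurons of the deep layers are known for Bcl11b, Sox5, Tle4 and Foxp2. In the GENCODE vM21 annotation of the mouse assembly GRCm38, Prox1 lies at chr1:190118035-190170714 and Epha4 at chr1:77367185-77515088, both on the minus strand. Nectin3 lies at chr16:46387706-46498525, Grik4 at chr9:42518135-42944493 and Epha5 at chr5:84054761-84417382, also on the minus strand, and Men1 at chr19:6334979-6340891 on the plus strand. Prox1os overlaps Prox1 on the other strand, and the sources used here do not say whether the counting used strand, so their UMIs may not be told apart.

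The NCKO-labelled library held 10731 such nuclei with a median of 3779 UMIs, and the F/F-labelled library held 6467 with a median of 3817 UMIs. Nuclei passing the gate were deeper, with medians of 4978 and 4896 UMIs, and together they gave 1626017 UMIs in the NCKO-labelled library and 830044 in the F/F-labelled library. Doublet scores among the highest of their library were held by 27 of the 279 NCKO-labelled nuclei (9.68%) and 6 of the 138 F/F-labelled nuclei (4.35%). The rule flagged a set part of each library, larger where more barcodes were deposited. It took 8.61% of all NCKO-labelled and 5.2% of all F/F-labelled nuclei, so the libraries differ in this share by the rule itself. The libraries shared 15 cell barcodes, 1 of them among the gated nuclei. Men1 did not mark the NCKO-labelled library as lacking menin transcripts. In gated nuclei it had 22 UMIs, or 13.5 CPM (UMIs scaled to a total of 1e6), in the NCKO-labelled library and 7 UMIs, or 8.43 CPM, in the F/F-labelled library, a ratio of 1.60 (95% counting interval 0.662 to 4.45). In the other excitatory nuclei it stood at 15.4 CPM in the NCKO-labelled library and 9.76 CPM in the F/F-labelled library, a ratio of 1.58 (lower limit 1.25). The sources used here do not say where these 3' UMIs lie relative to the deleted part, so every direction below is that of the library labelled NCKO over the library labelled F/F. RNA per nucleus and the mix of cell types within the gate cannot be told apart in a summed level.

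The gate held 279 of 10731 nuclei in the NCKO-labelled library (2.60%, exact 95% binomial interval 2.31 to 2.92) and 138 of 6467 in the F/F-labelled library (2.13%, 1.80 to 2.52). The ratio of shares was 1.22 (0.990 to 1.51), an interval that reaches 1. Deeper nuclei met the gate more often in both libraries, with 0.627% of NCKO-labelled and 0.567% of F/F-labelled nuclei under 2000 UMIs and 4.32% and 4.36% of those in the deepest of 5 classes. After thinning each nucleus to 2000 UMIs, the gate held 1.84% of NCKO-labelled and 1.51% of F/F-labelled nuclei. The nuclei just inside the Zbtb20 threshold, at exactly 2 UMIs, numbered 47 in the NCKO-labelled and 9 in the F/F-labelled library, and 2 and 0 of them lay in cluster 18. Just outside, 101 and 44 nuclei met every other condition with 1 Zbtb20 UMI, and 4 and 0 lay in cluster 18. At 10 or more Zbtb20 UMIs the gate held 115 NCKO-labelled and 84 F/F-labelled nuclei, of which 86 and 66 lay in cluster 18.

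When all nuclei were clustered together without the 8 gate genes, most of the gated nuclei fell into 2 of 30 clusters. Cluster 18, led by Fam163a, Nts, Nrp1, Nr3c2, Zfp385b and Pcsk5, held 104 of the 279 NCKO-labelled nuclei (37.3%, 31.6 to 43.2) and 73 of the 138 F/F-labelled nuclei (52.9%, 44.2 to 61.4). Cluster 7, led by Trps1, Tafa1, Sphkap, Grik1, Epha6 and Lingo2, held 103 NCKO-labelled nuclei (36.9%, 31.2 to 42.9) and 30 F/F-labelled nuclei (21.7%, 15.2 to 29.6). The 2 counting intervals of the libraries do not overlap in either cluster: cluster 18 had the smaller share, and cluster 7 the larger, in the NCKO-labelled library. Of all nuclei in the libraries, gated or not, cluster 18 made up 2.10% of NCKO-labelled and 2.03% of F/F-labelled nuclei, a ratio of 1.04 (0.831 to 1.29), and cluster 7 made up 5.78% and 3.15%, a ratio of 1.83 (1.56 to 2.16). The leading genes of cluster 19 were Tfap2d, Fign, Thsd7a and Cbln4, and it held 18 and 12 gated nuclei. Outside clusters 18 and 7 lay 72 NCKO-labelled and 35 F/F-labelled gated nuclei. A doublet score among the highest was held by 19 of the 72 (26.4%) and 2 of the 35 (5.71%). Of all nuclei, 8.61% and 5.2% held one. Leading genes of both clusters differed in level between the libraries, among them Nr3c2, at 962 and 1562 CPM in gated nuclei of cluster 18, and Trps1, at 2629 and 1614 CPM in those of cluster 7. The shares are therefore counts of nuclei as clustered, not of cells of a kind. Because the mix of clusters moves with the label, comparisons of the libraries are given within clusters 18 and 7 as well as over the whole gate.

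**Figure D1:**
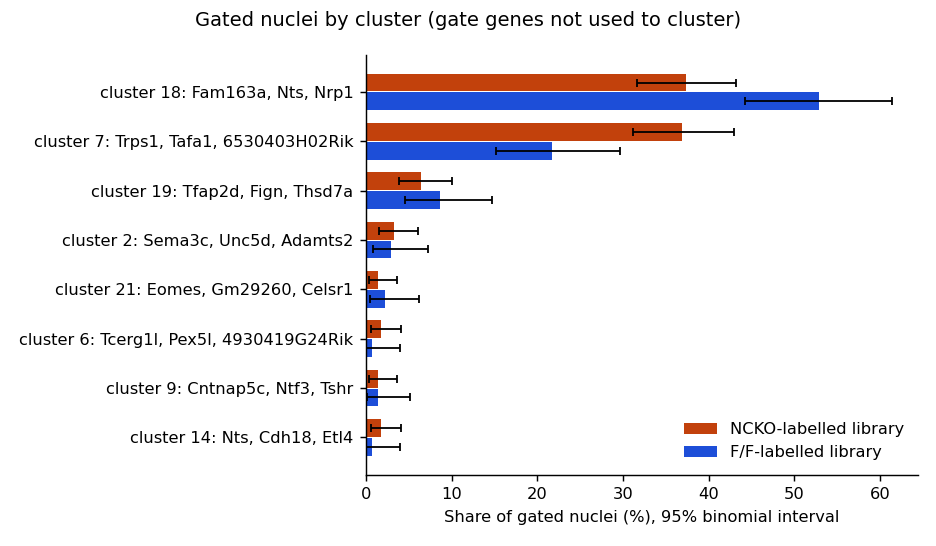
Share of the gated nuclei (percent, horizontal axis) in the 8 clusters that hold most of them, with exact 95% binomial intervals, for the NCKO-labelled library (upper bar of each pair) and the F/F-labelled library (lower bar). Cluster 18 held 37.3% of NCKO-labelled and 52.9% of F/F-labelled gated nuclei, cluster 7 held 36.9% and 21.7%, and no other cluster comes near these shares.

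Prox1 and the CA3 genes Grik4, Nectin3 and Rnf182 were 1.5-fold or more higher in gated nuclei of cluster 18 than in those of cluster 7, in both libraries. Levels are CPM of UMIs summed over the nuclei of a set, and other excitatory nuclei are those outside the gate with none of the 4 excluded genes and at least 1 UMI of Neurod2, Neurod6 or Slc17a7 (3403 and 2076 nuclei). The clusters were built from these same transcripts, so their levels describe the clusters and are no test of them. Prox1 stood at 204 CPM (exact 95% Poisson interval 167 to 247) in NCKO-labelled and 167 CPM (129 to 212) in F/F-labelled gated nuclei of cluster 18, against 13.3 and 31.3 CPM in those of cluster 7 and 4.95 and 2.78 CPM in the other excitatory nuclei. Grik4 stood at 369 and 384 CPM in cluster 18, 79.7 and 43.0 CPM in cluster 7, and 89.5 and 88.6 CPM in the other excitatory nuclei. Nectin3 was at 316 and 336 CPM in cluster 18, 38.4 and 58.6 CPM in cluster 7, and 108 and 130 CPM in the other excitatory nuclei. In cluster 18 all of these were above both other sets in both libraries, while in cluster 7 Nectin3 stood below the other excitatory nuclei in both libraries. Rnf182, a ubiquitin ligase gene on the CA3 list, was again highest in cluster 18, with 243 and 301 CPM in cluster 18, 70.9 and 62.5 CPM in cluster 7, and 67.5 and 85.0 CPM in the other excitatory nuclei. Cpne4, a copine of the CA3 list, was at 554 and 435 CPM in cluster 18 and 298 and 336 CPM in cluster 7. It stood at 255 CPM in NCKO-labelled and 156 CPM in F/F-labelled other excitatory nuclei. The CA3 list summed to 1506 and 1491 CPM in gated nuclei of cluster 18 and 772 and 783 CPM in those the gate left out. Rnf182 stood at 1.71 and 1.16 times its level in the latter.

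Set against the other excitatory nuclei of the same library, 4 of 4 measured CA3 genes were 1.5-fold or more higher in cluster 18 in both libraries (Grik4, Nectin3, Rnf182 and Cpne4), with a median log2 ratio of 1.60. Over all 3621 genes measured in that comparison 7.54% were that much higher in both libraries and 8.15% that much lower, and the median log2 ratio of all genes was 0.07 in the NCKO-labelled and 0.03 in the F/F-labelled library. In cluster 7, none of the CA3 genes was past 1.5-fold higher in both libraries and Nectin3 was lower, beside 5.12% of 3592 genes higher and 5.57% lower. Over the whole gate, 5 of the 7 CA3 genes were measured, Grik4 and Rnf182 were higher and Dkk3, a secreted Wnt modulator, was lower, beside 3.76% of 7181 genes higher and 2.84% lower. The lists of the other hippocampal fields had few members past 1.5-fold. Mpped1 of the CA1 list was lower in the gate and stood at 137 and 192 CPM in cluster 18, against 580 and 661 CPM in the other excitatory nuclei. The dentate markers C1ql2, Dsp and Tdo2 had 0 UMIs in gated nuclei of either library, so the summed dentate list, at 224 and 248 CPM in cluster 18 and 13.3 and 35.2 CPM in cluster 7, is Prox1 and Lef1. Lef1, the nuclear effector of Wnt signalling that the growth of the hippocampus requires, had 10 UMIs (19.6 CPM) in NCKO-labelled and 32 UMIs (80.9 CPM) in F/F-labelled gated nuclei of cluster 18, a ratio of 0.243 (0.106 to 0.506), against 3.58 and 1.24 CPM in the other excitatory nuclei. No gene of the subiculum list passed 1.5-fold over the whole gate, but its members differed between the clusters. Fn1 of that list was above the other excitatory nuclei in cluster 7, with ratios of 1.60 (NCKO) and 2.61 (F/F). Nts, also of that list and a leading gene of cluster 18, was 25.9-fold and 22.6-fold higher there than in cluster 7. The summed list stood at 206 and 291 CPM in cluster 18 and 127 and 172 CPM in cluster 7. In the other excitatory nuclei it stood at 162 and 177 CPM. In the nuclei of cluster 18 that the gate left out, the list was higher, at 438 and 706 CPM. Gated nuclei of cluster 18 had 0.440 and 0.365 times the Nts of those left out, and 0.294 and 0.423 times the Fn1.

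**Figure D2:**
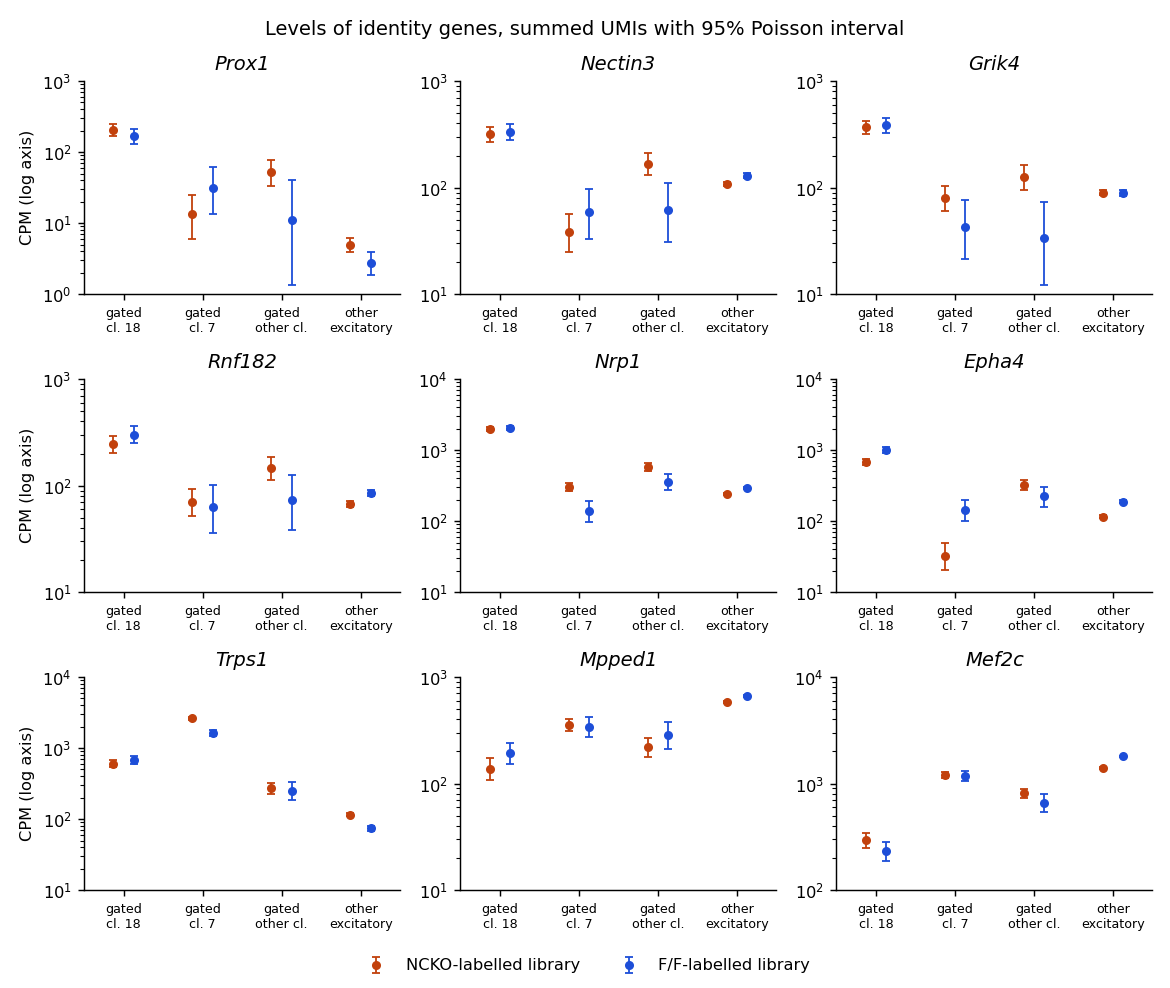
Summed levels in CPM (logarithmic vertical axis, bars on the points are 95% Poisson intervals) of 9 genes in gated nuclei of cluster 18, gated nuclei of cluster 7, gated nuclei of other clusters and other excitatory nuclei, for the NCKO-labelled and the F/F-labelled library. Prox1, Nectin3, Grik4, Rnf182, Nrp1 and Epha4 are highest in cluster 18, Trps1 is highest in cluster 7 at 2629 and 1614 CPM, and Mpped1 is highest in the other excitatory nuclei at 580 and 661 CPM.

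The gated nuclei were low in many, but not all, of the neocortical projection neuron genes listed. Mef2c, an activity-regulated transcription factor on the upper layer list, stood at 295 and 233 CPM in cluster 18, against 1399 and 1797 CPM in the other excitatory nuclei, but at 1199 and 1177 CPM in cluster 7. Of 12 upper layer genes measured over the gate, 7 were lower (among them Cux1, Pou3f2, Pou3f3, Rorb, Inhba and Mef2c) and 1, Mdga1, was higher, with a median log2 ratio of -0.71. Of 11 deep layer genes, 6 were lower (Tle4, Foxp2, Sox5, Ldb2, Tshz3 and Syt6) and 2, Zfpm2 and Crym, were higher. The median was -1.22. Over all 7181 genes measured over the gate, 2.84% were lower and 3.76% higher. Bcl11b passed in neither direction, and in cluster 7 it stood at 1.31 and 1.17 times the other excitatory nuclei. Cux2 stood there at 1.34 and 0.839 times. In cluster 18 Bcl11b stood at 0.969 and 1.29 times its level in cluster 7. In cluster 18 by itself the medians were -1.80 for the upper layer list and -1.88 for the deep layer list. Over all genes measured there the medians were 0.07 (NCKO) and 0.03 (F/F), with 8.15% of genes lower and 7.54% higher. Neurod6, a helix-loop-helix factor of cortical excitatory neurons, stood at 132 and 121 CPM in cluster 18 and 73.8 and 50.8 CPM in cluster 7, and Slc17a7, the vesicular glutamate transporter, at 37.3 and 58.1 CPM and 90.1 and 89.9 CPM. The excitatory rule used for the comparison set was met by 193 of the 279 NCKO-labelled and 77 of the 138 F/F-labelled gated nuclei. Neurod2, Neurod6 and Slc17a7 define that set, so lower levels of these 3 genes in the gate are no result. The other 86 and 61 gated nuclei did not meet the rule, so genes that go with these 3 may also stand higher in the comparison set. The part of this choice in the layer list medians was not tested.

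Several genes of semaphorin signalling were higher in the gated nuclei. Of 16 semaphorin, plexin and neuropilin genes measured over the gate (Nrp2 chose the nuclei and is left aside), Nrp1, Plxnd1, Sema3c, Sema4d, Sema5a, Sema5b and Sema6d were past 1.5-fold higher in both libraries and none was lower, beside 3.76% of all genes higher. Nrp1, the receptor for class 3 semaphorins, reached 1991 CPM in NCKO-labelled and 2068 CPM in F/F-labelled nuclei of cluster 18, against 239 and 296 CPM in the other excitatory nuclei, and stood at 304 and 141 CPM in cluster 7. Sema3c, a secreted semaphorin, stood at 410 and 516 CPM in cluster 18 and 89.0 and 80.3 CPM in the other excitatory nuclei, with 29.5 and 23.5 CPM in cluster 7. Nrp1 and Sema3c were thus higher in cluster 18 than in cluster 7, while Sema5b was lower in cluster 18 than in cluster 7. The nuclei of cluster 18 that the gate left out shared part of this. The list summed to 6121 and 6804 CPM in gated and 4459 and 5508 CPM in ungated nuclei of cluster 18, and 3415 and 3527 CPM in the other excitatory nuclei. Gated over ungated, the ratios were 1.47 and 1.32 for Nrp1 and 1.59 and 1.16 for Sema3c. Of 12 Eph and ephrin genes, the receptors Epha4, Epha5 and Epha6 were higher over the gate and the ligand Efna5 was lower. Of all genes measured there, 3.76% were higher and 2.84% lower. Epha4 stood at 679 CPM (610 to 755) in NCKO-labelled and 996 CPM (900 to 1099) in F/F-labelled nuclei of cluster 18, against 32.5 and 145 CPM in cluster 7 and 116 and 188 CPM in the other excitatory nuclei. Slit2, a secreted repellent, was higher over the gate at 484 and 337 CPM, against 123 and 117 CPM in the other excitatory nuclei, and the receptor gene Robo2 was lower.

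Of 18 glutamate receptor genes, Gria1, Grik1, Grik2, Grik4 and Grin2a were higher over the gate and Grik3 and Grm3 were lower. Of all genes measured over the gate, 3.76% were higher and 2.84% lower. The subunits differed between the clusters. Gria1, an AMPA receptor subunit, stood at 1967 and 2060 CPM in cluster 18 and 746 and 645 CPM in cluster 7, while the kainate subunit Grik1 stood at 56.9 and 88.5 CPM in cluster 18 and 834 and 911 CPM in cluster 7. Set directly against cluster 7, cluster 18 had 8.36% of 3671 genes past 1.5-fold higher and 8.14% lower in both libraries. Higher there, among the hippocampal, layer, guidance and nuclear factor I lists, were Prox1, Grik4, Nectin3, Rnf182, Nfia, Nfib, Nfix, Zbtb16, Epha4, Ephb2, Nrp1, Plxna2, Sema3c, Sema3e, Sema5a, Zfpm2 and Crym. Nts, Robo1 and Gria1 were higher too. Lower there were Mpped1, Fn1, Cux1, Cux2, Rorb, Mef2c, Unc5d, Foxp2, Tshz3, Epha3, Efnb2, Robo2, Sema3a, Sema5b, Plxnc1, Grik1, Grm3 and Grm8. The nuclear factor I genes Nfib and Nfix, transcription factors of neuronal and glial maturation, stood at 1712 and 1544 CPM and at 499 and 384 CPM in cluster 18. In cluster 7 they stood at 505 and 930 CPM and 156 and 97.7 CPM. Gated over ungated nuclei of cluster 18, the ratios were 1.60 and 0.926 for Nfib and 1.10 and 1.11 for Nfix.

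Over all genes, on the lists or not, the 12 with the highest ratio of gated over other excitatory nuclei in both libraries were Trps1, Prox1, Fam163a, Gm9968, Thsd7a, Pard3b, Rerg, Fgfr1, Epha6, Chrm3, Nell1 and Nr3c2. Gm9968 lies antisense within Zbtb20, a gate gene, and its UMIs may not be told apart from those of Zbtb20. Fgfr1, a fibroblast growth factor receptor that hippocampal growth is known to require, stood at 471 and 594 CPM in cluster 18. It stood at 32.5 and 39.1 CPM in cluster 7 and 38.6 and 60.0 CPM in the other excitatory nuclei. Against the nuclei of cluster 18 that the gate left out, its ratios were 2.16 and 1.14. Nr3c2, the mineralocorticoid receptor gene, known for its high level in adult hippocampus, stood at 962 and 1562 CPM in cluster 18, 267 and 254 CPM in cluster 7, and 111 and 63.8 CPM in the other excitatory nuclei. Trps1, a GATA-type repressor, had the opposite order between the clusters, with 599 and 682 CPM in cluster 18, 2629 and 1614 CPM in cluster 7, and 115 and 74.2 CPM in the other excitatory nuclei. Both clusters were above the other excitatory nuclei for these last 2 genes. Among the 12 lowest were Dpp10, Dync1i1, Cdh6, Prickle1, Pdzd2, Rorb, Ptn, Mkx, Gm57110 and Ccbe1. Dpp10, an auxiliary subunit of potassium channels, stood at 955 and 543 CPM in the gate and 3489 and 3543 CPM in the other excitatory nuclei.

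Within cluster 18, nuclei with a Prox1 UMI differed from those without one in many genes, although the clustering did not separate them. A Prox1 UMI was found in 20 of its 104 NCKO-labelled gated nuclei (19.2%, 12.2 to 28.1) and 12 of its 73 F/F-labelled gated nuclei (16.4%, 8.79 to 27.0), against 4 of 103 and 3 of 30 in cluster 7 and 1.62% and 1.06% of the other excitatory nuclei. At 2000 UMIs a nucleus the shares were 15.7% and 16.7% in cluster 18, 0.746% and 0.448% in the other excitatory nuclei, and 4.77% and 5.95% in GABAergic nuclei, in which one class is known to use Prox1. The nuclei with Prox1 had medians of 3855.5 and 3535 UMIs and those without 4381.5 and 5041 UMIs. This split was chosen after its values were seen, and the Prox1 UMI itself made it. At a finer resolution of the clustering (2) all 32 nuclei with a Prox1 UMI lay in 1 cluster with 98.8% and 100% of the others.

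The nuclei with a Prox1 UMI were high in Sema5a, Cntnap5a and Zfpm2 and low in Nectin3, Opcml and Epha5. Sema5a, a transmembrane semaphorin, stood at 1351 CPM in NCKO-labelled and 2051 CPM in F/F-labelled nuclei with Prox1, against 67.8 and 126 CPM in those without. Cntnap5a, a neurexin-like adhesion protein, stood at 3077 and 7220 CPM with Prox1 and 215 and 290 CPM without. Zfpm2, a cofactor of GATA proteins, stood at 5353 and 4806 CPM with Prox1 and 806 and 935 CPM without. The levels of these 3 genes did not come near each other between the sets in either library. Nectin3 had 5 UMIs (52.0 CPM) and 0 UMIs with Prox1, against 378 and 381 CPM without, and was found in 4 of 20 and 0 of 12 nuclei with Prox1 but in 69.0% and 68.9% of those without. Opcml, a cell adhesion protein of the IgLON family, stood at 218 and 171 CPM with Prox1 and 8701 and 8563 CPM without. Epha5 had 24 UMIs (250 CPM), 18 of them in 1 nucleus, and 1 UMI (21.4 CPM) with Prox1, against 3229 and 6981 CPM without. Grik4 did not follow this split, with 405 and 299 CPM with Prox1 and 361 and 396 CPM without, nor did Epha4, with 613 and 1175 CPM with Prox1 and 695 and 972 CPM without.

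**Figure D3:**
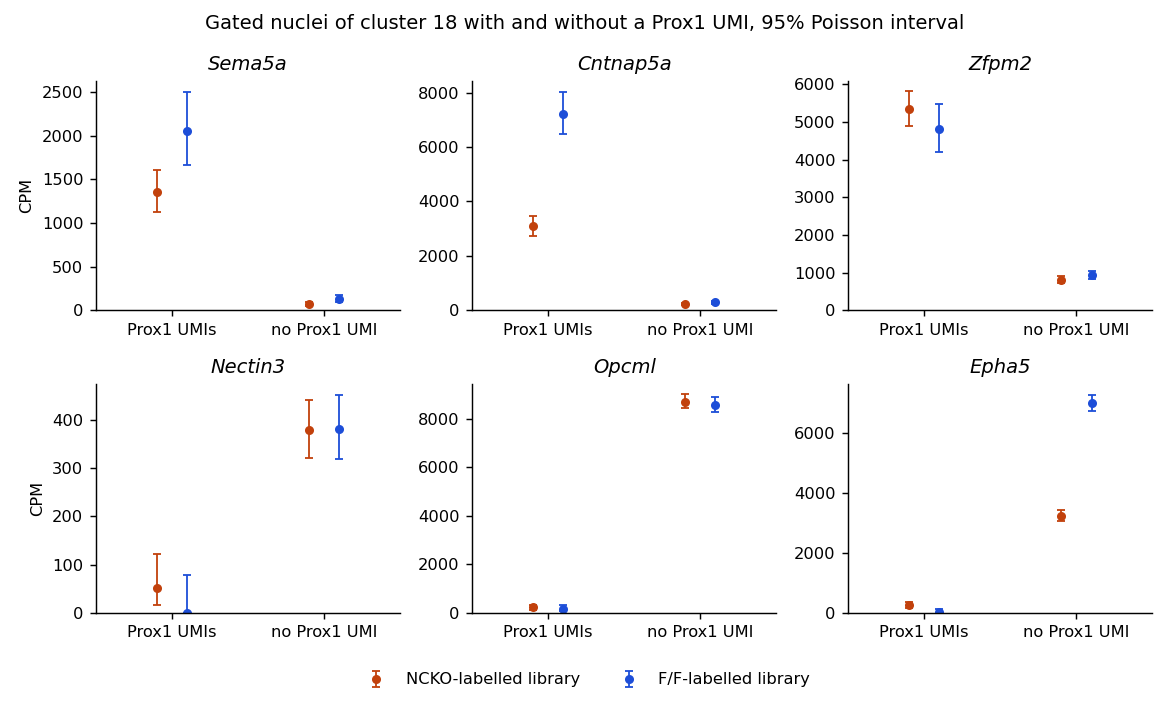
Summed levels in CPM (linear vertical axis from 0, with 95% Poisson intervals) of Sema5a, Cntnap5a, Zfpm2, Nectin3, Opcml and Epha5 in gated nuclei of cluster 18 with a Prox1 UMI (20 NCKO-labelled, 12 F/F-labelled) and without one (84 and 61). The first 3 genes are higher with Prox1 and the last 3 lower, in both libraries.

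For this split a gene was measured with 50 or more UMIs, found or expected, over the nuclei with Prox1 of both libraries together. Of 542 such genes, 16.8% were past 1.5-fold higher with Prox1 in both libraries and 17.9% lower. The 12 highest were Sema5a, Cntnap5a, Adamts18, Cntnap5b, Zfp536, Zfpm2, Sphkap, Lrrtm4, Pcdh15, Thsd7a, Ptpro and Aff2. The 12 lowest were Opcml, Pde1a, Epha5, Asic2, Sox5, Runx1t1, Epha6, Kcnq5, Tmem178b, Ppp2r2b, Chl1 and Ntm. Of the lists, genes higher with Prox1 included Nfia, Nfib, Zfpm2 and Sema5a. Those lower included Nectin3, Cpne4, Bcl11b, Sox5, Ldb2, Epha3, Epha5, Epha6, Ephb1, Nrp1, Robo1, Grin2a and Grm7. Sox5, a deep layer factor, stood at 83.2 and 85.4 CPM with Prox1 and 779 and 854 CPM without. Markers of GABAergic neurons moved with the split as well: the summed list stood at 1642 and 235 CPM with Prox1, against 48.4 and 91.7 CPM without. In the NCKO-labelled library 138 of the 140 Adarb2 UMIs behind that sum lay in 1 nucleus, and Gad1, an enzyme of GABA synthesis, was found in 4 of the 20 NCKO-labelled and 5 of the 12 F/F-labelled nuclei with Prox1. Gad2 was at 0 by the gate, and the part of GABAergic transcripts in the split was not tested.

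Among the nuclei of cluster 18 that the gate had left out, 7 of 121 NCKO-labelled and 4 of 58 F/F-labelled nuclei had a Prox1 UMI, and these carried GABAergic transcripts. The GABAergic list summed to 4010 and 4845 CPM in them, against 124 and 91.0 CPM in the ungated nuclei without Prox1, and stood at 4254 and 4563 CPM in GABAergic nuclei. In each library 1 nucleus gave most of that sum, with 126 of 127 Adarb2 UMIs in the NCKO-labelled and all 100 in the F/F-labelled library. Gad2, which the gate excludes, was found in 4 of the 7 and 2 of the 4 nuclei. Sema5a stood at 982 and 1077 CPM in them, against 78.9 and 119 CPM in the ungated nuclei of cluster 18 without Prox1. Zfpm2 stood at 3464 and 2038 CPM with Prox1 and 697 and 805 CPM without. Opcml stood at 2046 CPM (75 UMIs, 36 of them in 1 nucleus) and 76.9 CPM with Prox1, against 7747 and 10189 CPM without. Epha5 stood at 573 and 846 CPM with Prox1 and 3165 and 4732 CPM without. These 4 genes lay on the same side as in the gated nuclei, and the part of GABAergic transcripts in their levels was not tested.

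Between the libraries, 383 of 6875 genes measured over the gate (5.57%) were 1.5-fold or more higher in the NCKO-labelled library and 269 (3.91%) lower, on log2 ratios of CPM with 5 added to each level, and the median log2 ratio of all genes was 0.03. In gated nuclei of cluster 18 these shares were 6.78% and 6.51% of 3319 genes, and in those of cluster 7 they were 10.0% and 7.35% of 3291 genes. In nuclei of cluster 18 without Prox1 they were 6.46% and 6.39% of 2801 genes. Gene by gene, the differences fell into those also seen in the other excitatory nuclei and those seen in the gate or in 1 cluster, and no difference between the sets was tested.

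The Eph receptor gene Epha4 was lower in the NCKO-labelled library over the gate and outside it, and Epha5 was lower in cluster 18. Over the gate Epha4 stood at 314 CPM (510 UMIs) in the NCKO-labelled and 567 CPM (471 UMIs) in the F/F-labelled library, a ratio of 0.553 (0.487 to 0.628). In cluster 18 it was found in 85 of 104 NCKO-labelled and 65 of 73 F/F-labelled nuclei and the ratio of its levels was 0.682 (0.589 to 0.790), in the nuclei without Prox1 0.715 (0.609 to 0.839), and in cluster 7 0.225 (0.126 to 0.391) from 22 and 37 UMIs. The other excitatory nuclei had 116 CPM in the NCKO-labelled and 188 CPM in the F/F-labelled library, a ratio of 0.614 (0.576 to 0.654). Epha4 was thus lower for the NCKO label in the gate, in both of its main clusters and in the other excitatory nuclei, by less than 1.5-fold in cluster 18. In the gated nuclei of the other clusters it had the other direction, with 323 CPM in the NCKO-labelled and 224 CPM in the F/F-labelled library, a ratio of 1.44 (1.01 to 2.10), and 32 of the 142 NCKO-labelled UMIs lay in 1 nucleus. Epha5, a receptor for the same class of ephrins, stood at 2666 CPM in NCKO-labelled and 6157 CPM in F/F-labelled nuclei of cluster 18, a ratio of 0.433 (0.405 to 0.463). In cluster 7 it had the other direction, with 3038 and 2333 CPM, a ratio of 1.30 (1.19 to 1.43), and in the other excitatory nuclei it stood at 1747 and 1657 CPM. In nuclei of cluster 18 without Prox1, where nearly all of its UMIs lay, the ratio was 0.463 (0.432 to 0.495). Epha6 stood at 2059 and 2717 CPM in cluster 18 and 2787 and 1591 CPM in cluster 7, and Epha3 at 644 and 629 CPM in cluster 18. Of 11 Eph and ephrin genes measured over the gate, Epha4 and Epha5 were past 1.5-fold lower and none was higher. Of all genes measured there, 3.91% were that much lower and 5.57% higher.

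**Figure D4:**
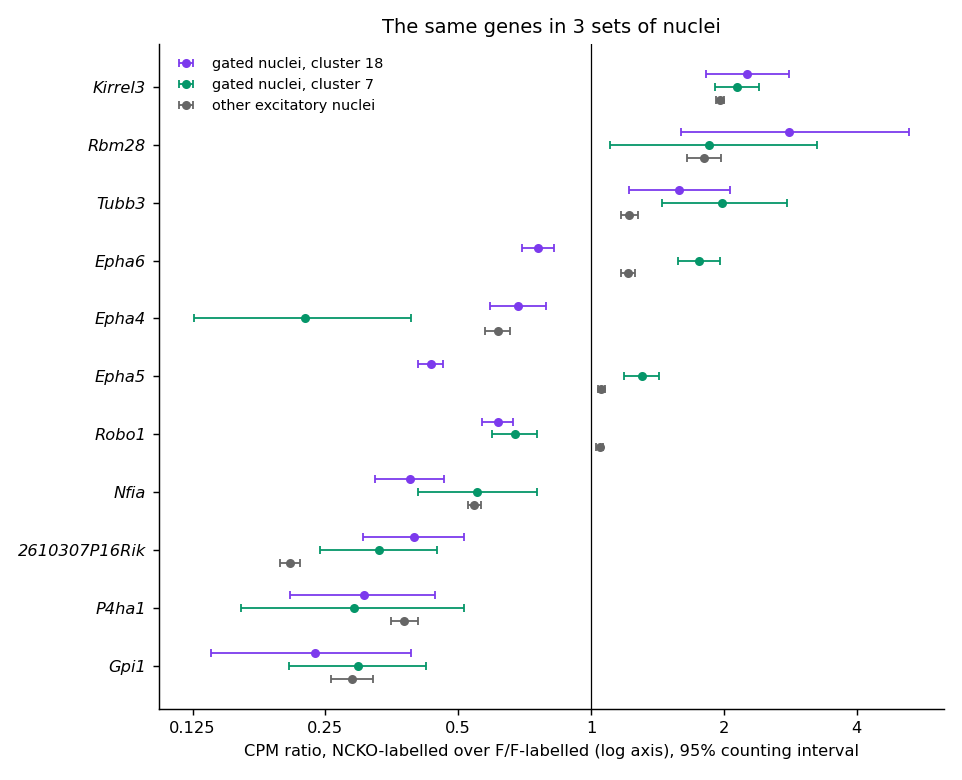
Ratio of CPM in the NCKO-labelled over the F/F-labelled library (logarithmic axis, with 95% counting intervals) for 11 genes in gated nuclei of cluster 18, gated nuclei of cluster 7 and other excitatory nuclei. Kirrel3 is above 1 and Epha4, Nfia, 2610307P16Rik, P4ha1 and Gpi1 are below 1 in the 3 sets, while Epha5 is at 0.433 in cluster 18, 1.30 in cluster 7 and 1.05 in the other excitatory nuclei.

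Other guidance and fate genes differed as well. Nfia, a nuclear factor I transcription factor, stood at 371 CPM in NCKO-labelled and 955 CPM in F/F-labelled nuclei of cluster 18, a ratio of 0.388, and at 155 and 281 CPM in cluster 7. The other excitatory nuclei had 369 and 680 CPM, a ratio of 0.543, so these 3 sets had less Nfia in the NCKO-labelled library, while the gated nuclei of other clusters had 455 and 454 CPM. Robo1, a receptor for Slit proteins, stood at 2146 and 3491 CPM in cluster 18 and 1186 and 1767 CPM in cluster 7, against 1843 and 1761 CPM in the other excitatory nuclei. It was lower in clusters 18 and 7 of the gate, but not in the gated nuclei of other clusters, with 2049 and 1814 CPM, nor in the other excitatory nuclei. Of the semaphorin list, Plxna1 was higher over the gate and Sema3e, Sema5a and Sema5b were lower. Sema5b, a transmembrane semaphorin, stood at 80.6 CPM in the NCKO-labelled and 149 CPM in the F/F-labelled library over the gate. None of the measured genes of the CA3, CA1 and dentate lists passed 1.5-fold over the gate. Of the dentate list only Prox1 had enough UMIs to be measured there, and Lef1 was lower for the NCKO label in cluster 18. The subiculum list summed to 181 CPM in the NCKO-labelled and 254 CPM in the F/F-labelled library over the gate. None of the 10 measured genes of the menin and MLL complex list passed 1.5-fold over the gate.

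**Figure D5:**
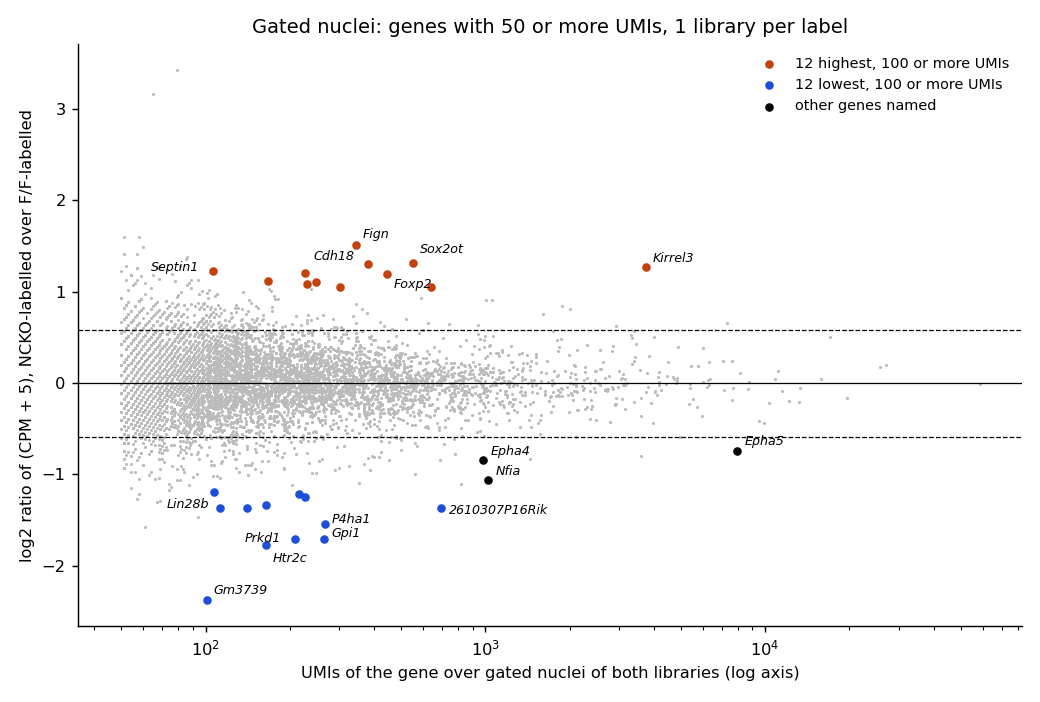
Log2 ratio of CPM with 5 added, NCKO-labelled over F/F-labelled library (vertical axis), against the UMIs summed over both libraries (logarithmic horizontal axis) for the 6875 genes measured in gated nuclei. The 12 highest and 12 lowest genes are coloured, Epha4, Epha5 and Nfia are black, dashed lines mark 1.5-fold, and the scatter widens toward few UMIs.

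Of 23 genes of glycolysis and the response to low oxygen, 13 were measured over the gate. Gpi1, Eno1, Ldha, Vegfa and P4ha1 were past 1.5-fold lower in the NCKO-labelled library, 8 did not pass and none was higher. Over all 6875 genes measured over the gate, 3.91% were that much lower and 5.57% higher. The median log2 ratio of the list was -0.45, and it summed to 780 CPM in the NCKO-labelled and 1287 CPM in the F/F-labelled library. In the other excitatory nuclei it summed to 749 and 1222 CPM. Gpi1, a glycolytic isomerase, stood at 59.0 and 204 CPM over the gate, a ratio of 0.290, against 29.8 and 104 CPM in the other excitatory nuclei, a ratio of 0.287. P4ha1, a subunit of the enzyme that hydroxylates collagen, stood at 64.0 and 196 CPM over the gate, a ratio of 0.326, and 71.0 and 188 CPM in the other excitatory nuclei, a ratio of 0.378. For these genes the gate and the other excitatory nuclei had ratios close to each other. Vegfa, a growth factor for blood vessels that low oxygen induces, had 41.8 and 89.2 CPM over the gate and 33.3 and 83.6 CPM in the other excitatory nuclei. Ldha and Eno1, which encode enzymes of lower glycolysis, had 16.6 and 48.2 CPM and 17.2 and 49.4 CPM over the gate. How each library was handled is not stated in those sources and cannot be told apart from its label.

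Several noncoding RNAs were also lower. Of the 6 genes of a list of noncoding RNAs near Pou3f and Sox genes, which had been drawn up from these same libraries and is no independent evidence of its direction, 5 were past 1.5-fold lower over the gate and the median log2 ratio was -1.22. Over all genes measured over the gate, 3.91% were that much lower and 5.57% higher. The list summed to 1542 CPM in the NCKO-labelled and 2940 CPM in the F/F-labelled library. 2610307P16Rik stood at 183 and 481 CPM over the gate, and at 112 and 541 CPM in the other excitatory nuclei, a ratio of 0.207. Pantr1, a noncoding RNA next to Pou3f3, stood at 61.5 and 153 CPM over the gate, a ratio of 0.402, while the ratio was 0.645 in cluster 18 and 0.309 in the other excitatory nuclei. Mir99ahg, the host of a microRNA cluster, stood at 1176 and 2050 CPM over the gate, a ratio of 0.574, and the other excitatory nuclei had a ratio of 0.431. For these 3 the ratio was closer to 1 in the gate than in the other excitatory nuclei.

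The 12 genes with the highest ratio over the gate were Fign, Sox2ot, Cdh18, Kirrel3, Septin1, Lrrn3, Foxp2, Ftl1, Rbm28, Cdh20, Ntng1 and Etl4. Kirrel3, a synaptic adhesion protein that hippocampal mossy fibre synapses use, stood at 1902 CPM in the NCKO-labelled and 787 CPM in the F/F-labelled library, a ratio of 2.42 (2.22 to 2.63). It stood at 673 and 298 CPM in cluster 18, 3024 and 1415 CPM in cluster 7, and 2240 and 1141 CPM in the other excitatory nuclei, so it was higher in the NCKO-labelled library in each of these sets. Rbm28, a nucleolar RNA-binding protein, stood at 125 and 55.4 CPM over the gate and 114 and 40.4 CPM in cluster 18. Septin1 stood at 54.7 and 20.5 CPM and Ftl1, the ferritin light chain, at 84.3 and 36.1 CPM over the gate. These 4 genes had ratios above 1.5 in cluster 18 as well as over the gate. For Fign, a microtubule-severing enzyme, the difference lay outside cluster 18, with 316 and 82.1 CPM in cluster 7 and 0 UMIs and 1 UMI in cluster 18. Foxp2, Cdh20 and Ntng1 had negative log2 ratios in cluster 18, of -0.31, -1.61 and -0.52, against 1.20, 1.09 and 1.05 over the gate. The values in cluster 18 rest on few UMIs and are given without counting intervals, so their signs alone do not show a reversal. Sox2ot, a noncoding RNA that spans Sox2, stood at 282 and 111 CPM over the gate but at 58.9 and 53.1 CPM in cluster 18.

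The 12 lowest were Gm3739, Htr2c, Gpi1, Prkd1, P4ha1, 2610307P16Rik, Syndig1, Lin28b, Gm29260, Pantr1, 4930578G10Rik and Gm28175. Gm3739 has close copies elsewhere in the genome among which reads may be split, so its 23 and 78 UMIs are uncertain. Prkd1, a kinase of the secretory pathway, stood at 46.1 CPM in the NCKO-labelled and 161 CPM in the F/F-labelled library over the gate, a ratio of 0.286, and 48.1 and 71.5 CPM in the other excitatory nuclei. Syndig1, a protein of excitatory synapses, had 58 and 83 UMIs over the gate, a ratio of levels of 0.357, and stood at 82.5 and 174 CPM in cluster 18, and at 78.9 and 86.0 CPM in the other excitatory nuclei, a ratio of 0.917. Both were lower in the gate by more than in the other excitatory nuclei. Lin28b, an RNA-binding protein that blocks let-7 microRNAs, stood at 28.3 and 80.7 CPM over the gate and had a ratio of 0.528 in the other excitatory nuclei. Htr2c, a serotonin receptor, stood at 34.4 and 130 CPM over the gate, but 37 of its 108 F/F-labelled UMIs lay in 1 nucleus and the other excitatory nuclei had 28.6 and 21.2 CPM.

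Within cluster 18, a ranking made after the data were seen put Adarb2, Oxr1, Tshz2, Kirrel3, Zfhx2, Kcnd3, Eif4g2, Gria3, Grik3, Rora and Slc49a4 among the 12 highest in the NCKO-labelled library. Single nuclei made 2 of these, since 138 of 148 UMIs of Adarb2 and 80 of 97 UMIs of Tshz2 came from 1 nucleus each. Gria3, an AMPA receptor subunit, stood at 232 CPM in the NCKO-labelled and 104 CPM in the F/F-labelled library. Rora, an orphan nuclear receptor, stood at 153 and 75.8 CPM. Lowest were Kcnip4, Gm40841, P4ha1, Mpped2, Nfia, Prkd1, 2610307P16Rik, Epha5, 4930578G10Rik, Gm28376, Slc35f1 and Tox. Kcnip4, a potassium channel partner, stood at 224 and 1029 CPM, but 208 of its 407 F/F-labelled UMIs lay in 1 nucleus. Mpped2, a phosphodiesterase, stood at 245 and 670 CPM in cluster 18, a ratio of 0.366, against 263 and 486 CPM in the other excitatory nuclei, a ratio of 0.540. The rankings over the gate and within cluster 18 shared 1 of 12 highest genes, Kirrel3, and 4 of 12 lowest genes, P4ha1, Prkd1, 2610307P16Rik and 4930578G10Rik.

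Markers of other cell types differed between the libraries for some lists. The GABAergic list summed to 494 CPM in the NCKO-labelled and 358 CPM in the F/F-labelled library over the gate, against 478 and 366 CPM in the other excitatory nuclei. In cluster 18 it stood at 349 and 109 CPM, and 138 of the 148 NCKO-labelled Adarb2 UMIs lay in 1 nucleus. The Cajal-Retzius list summed to 65.8 and 53.0 CPM and the microglia list to 33.2 and 50.6 CPM. Lhx1, Aqp4, Neurog1, Sox10 and Lum had 0 UMIs in both libraries. The astrocyte list, mainly Slc1a2, was higher in the gate than in the other excitatory nuclei, with 139 and 183 CPM against 45.6 and 52.9 CPM. The endothelial and meningeal list stood at 67.6 and 4.82 CPM over the gate, and 58 of the 65 Col1a1 UMIs behind it came from 1 NCKO-labelled nucleus. The oligodendrocyte precursor list stood at 7.99 and 1.20 CPM over the gate. In cluster 18 the endothelial and meningeal list stood at 9.82 and 7.58 CPM, and the part of these transcripts in the differences between the libraries was not tested.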

How the data were processed

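Raw UMI counts of genes in barcodes were deposited for 2 single-nucleus libraries. Per the file headers, Cell Ranger 6.1.0 made them. The mouse build mm10 and Seurat, without a version or a role, are named per the submitters' processing notes. The sources used here do not say whether introns and strand were counted. The files hold 10750 barcodes with 50115162 UMIs (NCKO) and 6477 barcodes with 30116311 UMIs (F/F), and 19 and 10 barcodes with under 500 genes were left out. The members, gene lists and comparisons were chosen with earlier results of these data known.

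UMIs were summed over the nuclei of each set in each library and divided by the set's total to give CPM. Ratios were taken on log2 of CPM plus 5, with 50 or more UMIs over both libraries and 1.5-fold as the size counted. Levels have exact Poisson, ratios exact conditional binomial and shares Clopper-Pearson intervals, all at 95% and for counting error only. Named genes are the 12 highest and 12 lowest with 100 or more UMIs. All nuclei were clustered jointly (2000 variable genes without the 8 gate genes, 30 principal components, 20 neighbours, Leiden at resolution 1), and doublets were scored by a Scrublet-like method and kept. GABAergic nuclei had 2 or more Gad2 UMIs and 0 Slc1a3 UMIs. Of 33938 genes, 32241 were found in GENCODE vM21. Summing and ratios were tested on simulated data. Python 3.11.15, numpy 2.4.6, scipy 1.17.1, pandas 2.3.3, scikit-learn 1.9.0, leidenalg 0.10.2, igraph 0.11.9 and matplotlib 3.10.9 were used. Alternatives changed the gate, the pseudocount, the UMI minimum, the clustering, the depth range and the nuclei used. One gene is not reported here.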

Additional observations from a re-analysis of the deposited data

How the results depend on the processing

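No paired analysis was possible because each label has 1 library, and for the same reason no replicate could be left out. The ratio of gate shares, 1.22, became 0.859 with the nuclei of cluster 18 alone and 2.07 with those of cluster 7 alone, and stayed above 1 under the other gate settings tried. Within depth classes it did so except in the deepest, with 4.32% of NCKO-labelled and 4.36% of F/F-labelled nuclei. The share of gated nuclei in cluster 18, 42.4%, became 48.5% when 3 or more Zbtb20 UMIs were required. The 652 genes past 1.5-fold between the libraries, of 6875 measured, became 255 of the same 6875 with 20 added to the CPM. They became 1380 of 10159 with a minimum of 20 UMIs and 286 of 4304 with a minimum of 100 UMIs. In cluster 18 without Prox1 they became 360 of 2801. The number of genes measured changed between these settings, so the counts are not like for like. Leaving out the top nucleus of each gene gave 549 genes higher and 212 lower (72.1% higher) against 383 and 269 (58.7%). This setting took the largest count of each gene from the sum of each library and kept the total. One nucleus is a larger part of 138 F/F-labelled than of 279 NCKO-labelled nuclei. The setting thus moves ratios toward the NCKO label by itself, and the split it gave is no result. The number of hippocampal field markers higher in the gate, 3 of the 23 listed, became 6 in cluster 18 alone and 1 in cluster 7 alone. Not all of the listed markers were measured in each set. The share of all genes higher changed too, from 3.76% over the gate to 7.54% in cluster 18 and 5.12% in cluster 7. Of 421 single-gene alternatives over 29 genes, 352 moved by less than the counting interval, 61 moved by more and 8 changed sign. Restricted to cluster 18, Cdh20 became -1.61, Foxp2 -0.31 and Ntng1 -0.52 (log2), and without Prox1 they became -1.73, -0.42 and -0.69. These values rest on few UMIs, and a changed sign by itself does not show a reversal beyond counting error. Htr2c became 0.33 in nuclei of 3000 to 8000 UMIs and Epha5 0.38 in cluster 7. The cause of the other changes was not tested. The alternatives limited to cluster 7 or to nuclei without Prox1 were chosen after seeing the data. Depth limits what can be said of genes with few UMIs: a gene at 0 UMIs in cluster 18 may stand at up to 7.24 CPM in the NCKO-labelled library, the upper Poisson limit given for Fign.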

Other observations

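The gated nuclei outside clusters 18 and 7, 72 in the NCKO-labelled and 35 in the F/F-labelled library, differed between the libraries in Grik4, Nectin3 and Prox1. Grik4 stood at 125 CPM in the NCKO-labelled and 33.6 CPM (6 UMIs) in the F/F-labelled library there, Nectin3 at 168 and 61.6 CPM, and Prox1 at 52.4 CPM (23 UMIs, 8 of them in 1 nucleus) and 11.2 CPM (2 UMIs). Tfap2d, a transcription factor that leads cluster 19, had 32 UMIs (72.8 CPM) and 42 UMIs (235 CPM). A doublet score among the highest was held by 19 and 2 of these nuclei (26.4% and 5.71%), against 8.61% and 5.2% of all nuclei. The part of such nuclei in these levels was not tested.

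Some summed levels rested largely on 1 nucleus. Etl4 had 42 UMIs in NCKO-labelled nuclei of cluster 18, of which 30 lay in 1 nucleus. Sox2ot had 223 UMIs in NCKO-labelled and 6 UMIs in F/F-labelled gated nuclei of cluster 7, and 61 of the 223 lay in 1 nucleus.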
